A study of Mus musculus with 6 samples.

Results

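Genes known from germ cells, placenta, testis and the early embryo were followed in a mouse lymphoma. They were Eras, the X-linked homeobox genes Rhox5, Esx1, Rhox6 and Rhox9, the stem cell factors Pou5f1 and Nanog, and the germ cell genes Dppa3, Ddx4 and Dazl. They were taken by name from the gene probes of the arrays, with every probe of each gene, which gave 11 probes of 10 genes out of 41174 probes on each array. The list was drawn up with results of the comparison below in view, so the values of these genes are given as a description with no test. All 10 genes were on the array by their current names, and Dazl alone had 2 probes.

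The cells were lines of S49, a T cell lymphoma of the mouse kept as a suspension culture. MR 4-25 is, by its label, a mannitol-recovered line, mannitol being a sugar alcohol with which the osmolarity of a medium can be raised, and Neo is its parental line. RNA came from 3 samples of MR 4-25 and 3 of Neo, all untreated and grown in the same serum-supplemented RPMI-1640 medium, and each was hybridised to 1 single-dye (Cy3) Agilent array. There was 1 recovered line and 1 parental line, so recovery from mannitol cannot be told apart from other differences between the lines, and whether the replicates of a line were grown as separate cultures is not stated in the labels. The p-values below therefore cover only the spread among these 6 samples, part or all of which may be technical.

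Most genes of the germ line and early embryo are kept silent in lymphocytes and other somatic cells, many of them by DNA methylation and by repressors that sit on their promoters. The Rhox genes are a cluster of homeobox transcription factors on the X chromosome that are known from testis, ovary, placenta and embryonic stem cells. Tumour cells are known to express some genes of this kind again, and Rhox5, formerly Pem, was first described as a gene shared by T lymphoma lines and embryonic tissue.

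MR 4-25 1, MR 4-25 2, Neo 1 and Neo 2 were on slide 1, and MR 4-25 3 and Neo 3 were on slide 2. The array of MR 4-25 3 was the dimmest, with a 75th percentile of 521 intensity units against 844 to 988 on the other 5 arrays, and 61.3% of its probes well above background against 69.9% to 76.2%. Across genes, which are not independent replicates, MR 4-25 3 correlated at 0.934 with Neo 3, above its 0.891 and 0.904 with MR 4-25 1 and MR 4-25 2. All 15 T lymphocyte markers were well above background on all 3 arrays of each line with a summed signal of 162178 to 297594 units in MR 4-25 and 322173 to 383911 in Neo. Signals below are background-corrected intensity units, and log2 levels are relative to the 75th percentile of the same array, so that 0 is the level of that percentile.

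The sequences below are the probe of Eras, the gene with the widest gap between lines, the probe of Rhox9, whose signal was missing on 1 array of each line, and DNA before the starts of Eras, Rhox5 and Esx1, the genes higher in MR 4-25. The probes are 60 bases long, in the order of the file, and neither shares a run of 20 bases with another probe on the array. The Eras probe lies on the X chromosome of build mm7 at chrX:6358019-6358078 and the Rhox9 probe at chrX:32993222-32993281, both listed from the higher coordinate to the lower.
Eras probe: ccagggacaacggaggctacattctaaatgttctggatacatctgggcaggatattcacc
Rhox9 probe: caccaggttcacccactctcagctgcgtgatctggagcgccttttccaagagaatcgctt
For the promoters, 250 bases before the start given by RefSeq (build GRCm38.p6) are printed 5′ to 3′, with capitals at each CG dinucleotide, the site of DNA methylation in mammals. The window of Eras is chrX:7928608-7928857 on the minus strand and that of Rhox5 is chrX:37754358-37754607 on the plus strand, before the most upstream end of each annotated gene. The Esx1 start of the table lies inside the annotated span of the gene, so for Esx1 only the 30 bases densest in CG are shown, chrX:137120356-137120385 on the minus strand.
Eras promoter: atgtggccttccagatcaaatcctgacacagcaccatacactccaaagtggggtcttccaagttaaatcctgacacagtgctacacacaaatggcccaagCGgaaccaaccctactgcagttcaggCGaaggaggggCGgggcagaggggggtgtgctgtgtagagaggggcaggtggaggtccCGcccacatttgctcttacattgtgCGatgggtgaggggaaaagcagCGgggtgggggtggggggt
Rhox5 promoter: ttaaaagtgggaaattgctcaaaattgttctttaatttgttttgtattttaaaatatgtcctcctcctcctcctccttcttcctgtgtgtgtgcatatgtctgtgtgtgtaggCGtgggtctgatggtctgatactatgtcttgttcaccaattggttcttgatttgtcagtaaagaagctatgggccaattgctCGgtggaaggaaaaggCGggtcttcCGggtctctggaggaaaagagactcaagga
Esx1 stretch: tcCGCGCGCGCGtgCGCGCGCGCGggCGCG
The windows differed in CG content. The Eras window held 6 CG and the Rhox5 window 4, against a median of 6 (quartiles 2 and 16) over 32851 RefSeq promoter windows of the same length, of which 92.1% held at least 1. The Esx1 window held 24, more than 88.0% of windows had, and 12 of them stand in the 30 bases printed. Of 7 of the 10 genes with a window in the table, Ddx4 held 31 CG, Dazl 20, Pou5f1 8 and 6 at 2 starts, and Nanog 3 and 2 at 2 starts. The letters CACGTG, an E-box read the same on both strands, occurred once each in the Esx1 and Ddx4 windows and in 6.02% of all windows. The letters GCGGGAA, part of a site known for E2F factors, were searched on both strands and occurred once in the Ddx4 window and in 3.82% of all windows. A match is a description of the letters and not of a bound site.

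Eras, Rhox5 and Esx1 were higher on all 3 MR 4-25 arrays than on all 3 Neo arrays, and no other gene of the 10 separated the lines. Over all kept probes, 10.8% were higher in this way and 14.4% lower, and nothing is read from the count because the genes were proposed from this contrast. In the plot of signals by array, Dppa3 and Ddx4 stayed at the bottom in both lines, and the remaining 5 genes were dim and overlapped between lines. In bulk RNA, fewer expressing cells and less RNA per cell cannot be told apart.

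**Figure D1:**
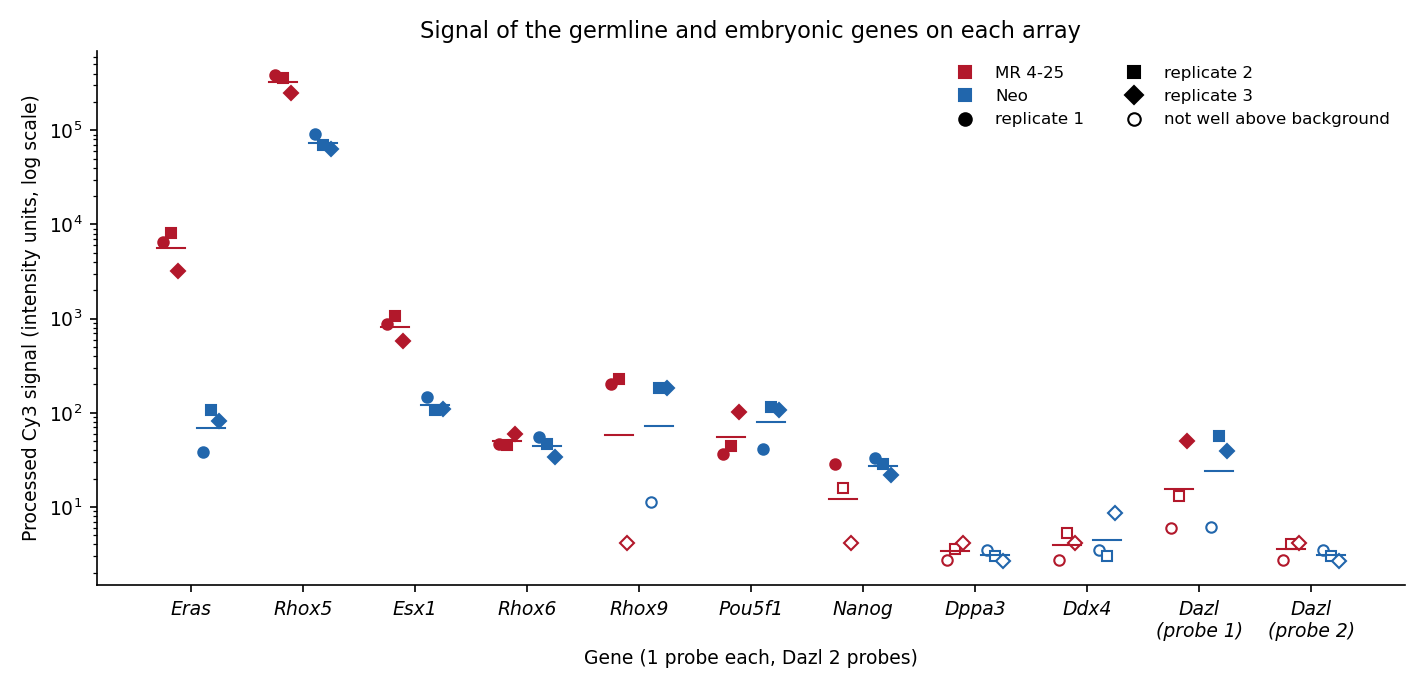
Processed Cy3 signal (intensity units, log axis) of each gene on each array, 1 probe per gene and 2 for Dazl, with MR 4-25 left of Neo in each pair. Markers give the replicate, open markers are not well above background and bars are the geometric mean of 3 arrays. Eras, Rhox5 and Esx1 show a gap between the lines, and heights are not comparable between genes because probes differ.

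Eras encodes a Ras-like GTPase of mouse embryonic stem cells that is active without a growth signal and promotes their proliferation. It had 6539.7, 8180.8 and 3229.8 units in MR 4-25, against 38.6, 106 and 82.2 units in Neo. The lowest MR 4-25 array was far above the highest Neo array, although the probe was well above background on all 6 arrays, so a signal was present in Neo as well. The log2 level averaged 2.90 ± 0.27 in MR 4-25 and −3.72 ± 0.87 in Neo (SD, n = 3 each), a log2 difference of 6.62, or 98.3-fold, and with normexp background correction the log2 difference was 5.46. The difference was 6.87 on slide 1 and 6.11 on slide 2, and 6.75 without the dim array of MR 4-25 3. The wide SD of Neo came from Neo 1, the lowest of its line, and without that array the log2 difference was 6.14.

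Rhox5 is the founding member of the Rhox cluster and is known as a transcription factor of Sertoli cells and early embryos. It had 386100, 363250 and 246868 units in MR 4-25, against 90635.7, 70358.9 and 63802.8 units in Neo. All Neo arrays carried a Rhox5 signal well above background, and each MR 4-25 array stood above them, with no array marked as saturated for this probe. The log2 level averaged 8.77 ± 0.13 in MR 4-25 and 6.34 ± 0.20 in Neo (SD, n = 3 each), a log2 difference of 2.43, or 5.40-fold, with 2.26 on slide 1 and 2.77 on slide 2. The file gives no coordinate for the probe. Without MR 4-25 3 the log2 difference was 2.37.

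Esx1, a homeobox factor of the placenta and of male germ cells that lies on the X chromosome outside the Rhox cluster, had 869, 1070.5 and 572 units in MR 4-25, against 147, 108 and 110.1 units in Neo. The 3 MR 4-25 arrays lay above all Neo arrays, and both groups were well above background. The log2 level averaged 0.12 ± 0.12 in MR 4-25 and −2.92 ± 0.16 in Neo (SD, n = 3 each), a log2 difference of 3.05, or 8.26-fold. This was 2.97 on slide 1, 3.19 on slide 2 and 3.04 without MR 4-25 3. The Esx1 probe lies at chrX:131834651-131834710 of build mm7.

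Rhox6 and Rhox9 are paired relatives within the Rhox cluster, known from placenta and gonads. Rhox6 had 46.8, 46.0 and 60.2 units in MR 4-25, against 55.1, 46.2 and 33.8 units in Neo, and the lines overlapped although the probe was above background on all 6 arrays. Its log2 difference of 0.49 came from slide 2, where it was 1.65, against −0.09 on slide 1. Rhox9 had 204, 231 and 4.15 units in MR 4-25, against 11.4, 182 and 185 units in Neo. Its signal was present on 4 arrays and missing on MR 4-25 3 and Neo 1, so the split did not run between the lines, and a difference that rests on those arrays has no size.

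Pou5f1 (Oct4) and Nanog are transcription factors that hold embryonic stem cells in the pluripotent state. Pou5f1 had 36.6, 44.6 and 102 units in MR 4-25, against 41.3, 117 and 107 units in Neo. It was well above background on all 6 arrays and overlapped between the lines, with the 3 higher values on MR 4-25 3, Neo 2 and Neo 3 and a log2 difference of −0.25 (−0.74 on slide 1, 0.75 on slide 2). Nanog had 28.4, 15.9 and 4.15 units in MR 4-25, against 33.4, 28.6 and 21.9 units in Neo. It was well above background on 1 of 3 MR 4-25 arrays and on 3 of 3 Neo arrays, and MR 4-25 1 lay within the Neo range, so the log2 difference of −0.87 did not separate the lines.

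Dppa3, known as Stella, protects methylation marks in the egg and early embryo, Ddx4 (Vasa) is an RNA helicase of germ cells, and Dazl binds RNA in germ cells. Dppa3 had 2.73, 3.61 and 4.15 units in MR 4-25, against 3.52, 3.04 and 2.67 units in Neo. Ddx4 had 2.73, 5.28 and 4.15 units in MR 4-25, against 3.52, 3.04 and 8.59 units in Neo. Neither was well above background on any of the 6 arrays, and most of these values are substitutes that the scanner software writes for a signal at the background, so they have no order. Probe A_52_P271166 of Dazl was at the same floor, with 2.73 to 4.15 units in MR 4-25 and 2.67 to 3.52 units in Neo.

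The other Dazl probe, A_51_P246060, disagreed with it. It had 5.94, 13.0 and 50.2 units in MR 4-25, against 6.21, 56.3 and 39.1 units in Neo, and was well above background on 1 of 3 MR 4-25 arrays and 2 of 3 Neo arrays. The 3 higher values were on MR 4-25 3, Neo 2 and Neo 3, the arrays on which Pou5f1 was also higher, and the log2 difference was −0.31. The 2 Dazl probes lie apart on chromosome 17 of mm7, at chr17:48435590-48435736 and chr17:48427556-48427615.

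**Figure D2:**
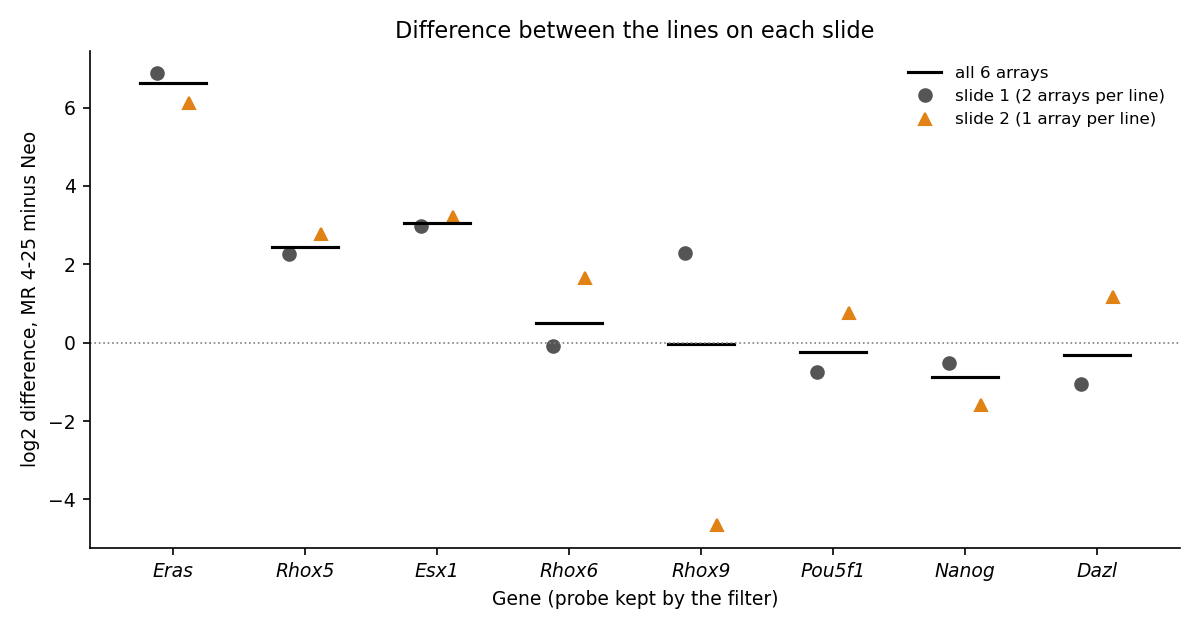
Log2 difference, MR 4-25 minus Neo, of each gene whose probe was kept by the filter, over all 6 arrays (bar), on slide 1 with 2 arrays per line (circle) and on slide 2 with 1 array per line (triangle). Eras, Rhox5 and Esx1 lie above 2 on both slides, and Rhox6, Rhox9, Pou5f1 and Dazl change sign between slides. The points of Rhox9, Nanog and Dazl include arrays not well above background and have no exact size.

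In all, 5 of the 11 probes (Eras, Rhox5, Esx1, Rhox6 and Pou5f1) were well above background on all 6 arrays, against 54.2% of all probes, and 3 were so on none, against 15.9% of all probes. The same count of 5 was above the 99th percentile of the negative control spots on all 6 arrays. The filter on dim probes, which asked for 3 or more of 6 arrays well above background, retained 8 of the 10 genes, all but Dppa3 and Ddx4.

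The rest of the Rhox cluster was covered by few probes. Of 29 other Rhox genes listed, 5 were on the array under a name that could be matched and 4 were kept by the filter, of which 0 passed the limma test described below and 0 had an unadjusted p under 0.05. Rhox4e had 2839.6, 2644 and 1855 units in MR 4-25, against 2458, 2219 and 2464 units in Neo. On the scaled log2 level its MR 4-25 arrays lay above all Neo arrays, but the log2 difference was 0.31 (limma adjusted p = 0.481). Rhox2a had 120, 96.5 and 34.8 units in MR 4-25, against 58.5, 52.1 and 11.2 units in Neo, with a log2 difference of 1.48 (limma adjusted p = 0.484). Rhox3a and Rhox13 overlapped between lines, with log2 differences of 0.93 and −0.24. Rhox2, Rhox3 and Rhox4 genes exist as near-identical copies whose signals may mix. The median log2 difference of the 4 was 0.62, against 0.01 over all genes, with 0.22 on slide 1 and 1.42 on slide 2, where Rhox2a and Rhox3a were not well above background in Neo 3.

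Other genes of the same programmes were tested with limma over 21341 genes at a Benjamini-Hochberg adjusted p of 0.05, a fit in which 0.675% of all genes rose in MR 4-25 and 0.558% fell. In all 263 genes passed, and 1 gene passed with replicate number as a block. With slide as a block, 172 genes were higher and 166 lower. Of 34 measured genes of embryonic stem cells and early embryos, 0 passed in either direction, with a median log2 difference of 0.07. Of 47 measured genes of germ cells and meiosis, 1 rose and 0 fell, with a median of 0.07. Of 20 X-linked genes of testis and placenta outside the Rhox cluster, 0 passed, with a median of 0.27, and of 21 trophoblast and placenta genes 0 passed, with a median of −0.11. At an unadjusted p under 0.05 the numbers higher and lower were 2 and 1 for embryonic genes, 2 and 4 for germ cell genes, 2 and 2 for X-linked genes and 0 and 1 for trophoblast genes, while 13.3% of all genes had such a p. With 1.23% of all genes called in either direction, a count of 0 in lists of this length says little.

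The gene that rose was Prdm1 (Blimp1), a repressor that starts the germ cell fate in the embryo and is equally known for driving the last steps of lymphocyte differentiation. Prdm1 had 356, 272 and 194 units in MR 4-25, against 68.4, 50.3 and 45.2 units in Neo, with no overlap. Its log2 level averaged −1.49 ± 0.23 in MR 4-25 and −4.09 ± 0.25 in Neo (SD, n = 3 each). The difference was 2.60 ± 0.21 (SE), or 6.06-fold, with a limma adjusted p of 0.0127. The list that holds Prdm1 was written with earlier results of these data known, so this p is not independent support. The call was lost with the replicate block (adjusted p = 0.105), with normexp background correction (0.0832), on slide 1 alone (0.0649) and on leaving out any array other than MR 4-25 3 (0.0691 to 0.109).

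Ott, an X-linked gene known from the testis, was named because it was detected in a single line. It had 6.34, 3.14 and 4.15 units in MR 4-25, where no array was well above background, against 32.6, 26.1 and 37.2 units in Neo, where all 3 were. With its MR 4-25 values raised to the lowest signal well above background on each array, it was 2.59-fold lower in MR 4-25. Some probes not well above background read higher than that level, so this fold is not a firm lower limit. The limma adjusted p was 0.0544. The probe passed the filter through Neo alone and was named for that pattern, so nothing is read from this p. Under the normexp correction its log2 difference changed sign, at 0.48, and its other probe was well above background on 0 of 3 MR 4-25 arrays and 1 of 3 Neo arrays.

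**Figure D3:**
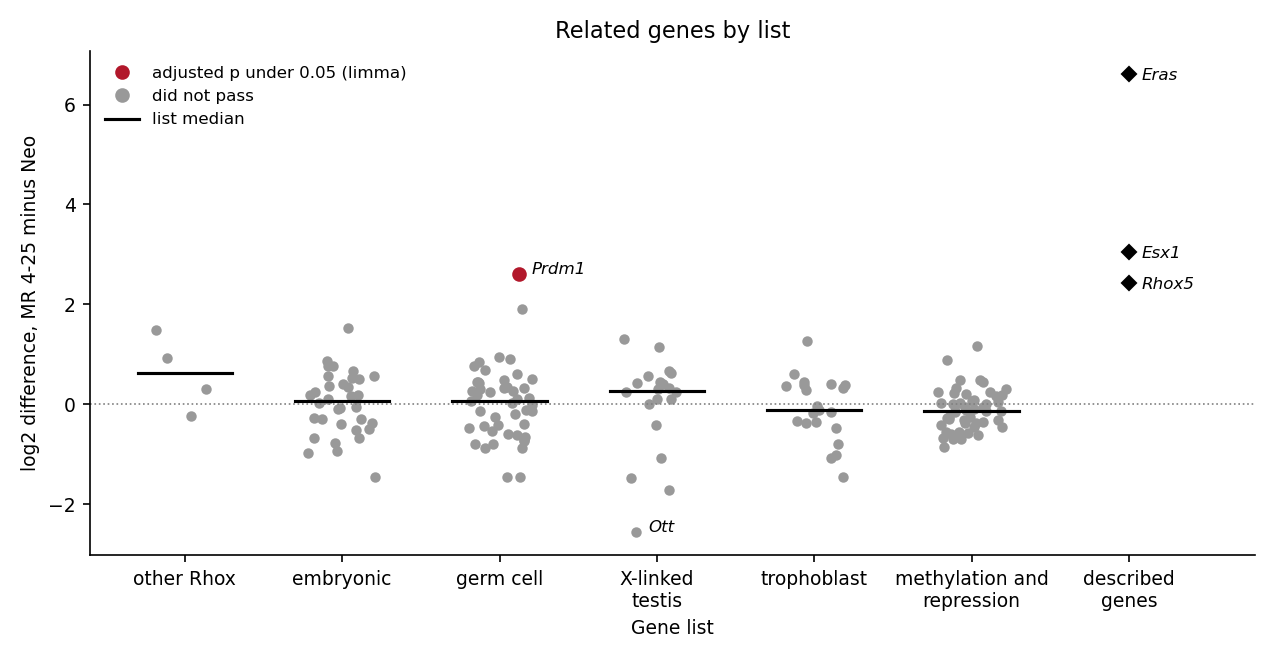
Log2 difference, MR 4-25 minus Neo, of every measured gene of 6 lists (points) with the list median (bar), beside Eras, Esx1 and Rhox5 (diamonds). Red marks a limma adjusted p under 0.05, which Prdm1 alone reached among 176 listed genes. List medians lie between −0.13 and 0.62.

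DNA methyltransferases, their partners and the repressors that act on germline promoters were measured in both lines, since such genes are known to hold this class of gene silent. All 50 listed genes were kept by the filter and 0 passed in either direction, with a median log2 difference of −0.13. At an unadjusted p under 0.05, 2 were higher and 9 lower, which is 22% of the list against 13.3% of all genes. Dnmt1, the maintenance methyltransferase, had a log2 difference of −0.25 (limma adjusted p = 0.621) on its brightest probe. Dnmt1 was chosen by name after values were seen.

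Genes beside Eras, Rhox5 and Esx1 on the chromosome were read from the same fit. Eras lies at chrX:7924276-7928607 of GRCm38.p6, where its annotated span overlaps the end of Pcsk1n on one side and lies close to Hdac6 on the other. Pcsk1n, a secreted inhibitor of prohormone convertases, had a log2 difference of 0.66 (limma adjusted p = 0.813) and overlapped between lines. Hdac6, a cytoplasmic deacetylase, had 4416, 5030.3 and 3369 units in MR 4-25, against 3022, 2440.3 and 2772 units in Neo. Its MR 4-25 arrays all lay above its Neo arrays, by a log2 difference of 0.92 (limma adjusted p = 0.0859), and it passed only with the filter on all 6 arrays among the alternatives run. Of the 10 nearest measured genes of Eras 0 passed, and the same count of 0 of 10 held for Rhox5 and for Esx1. With 1.23% of all genes called in either direction, a count of 0 of 10 says little. The measured genes counted lay up to 562 kb from Rhox5 and 2212 kb from Esx1.

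Over all genes, 0.675% rose and 0.558% fell. Of 70 distinct measured genes within 5 places of any of the 10 genes, themselves left out, 2 rose and 0 fell. Both lie near Pou5f1 on chromosome 17. H2-Q2 had a log2 difference of 1.63 (limma adjusted p = 0.0173) and H2-Q7 of 1.36 (limma adjusted p = 0.0373), and these are class I antigen-presenting molecules of closely related sequence, whose probes may read each other's transcripts. Both calls were lost with normexp, the replicate block, slide 1 alone and without MR 4-25 1, MR 4-25 2, Neo 1, Neo 2 or Neo 3, and that of H2-Q7 also with median scaling, with no filter and without MR 4-25 3. The count was 4 higher and 1 lower of 47 with the filter on all 6 arrays, where 289 of all 15303 genes were higher and 235 lower. With every probe on its own it was 5 higher and 1 lower of 70 genes, where the gene called lower was also called higher on another probe. In that fit 215 of all 30965 probes were higher and 186 lower. The 5 neighbours called higher were H2-Q1, H2-Q10, H2-Q2, H2-Q7 and Slc2a3. Slc2a3, a glucose transporter beside Nanog, had a log2 difference of 1.60 (limma adjusted p = 0.0514). It passed with the filter on all 6 arrays, with every probe on its own, with quantile scaling and with the slide block.

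**Figure D4:**
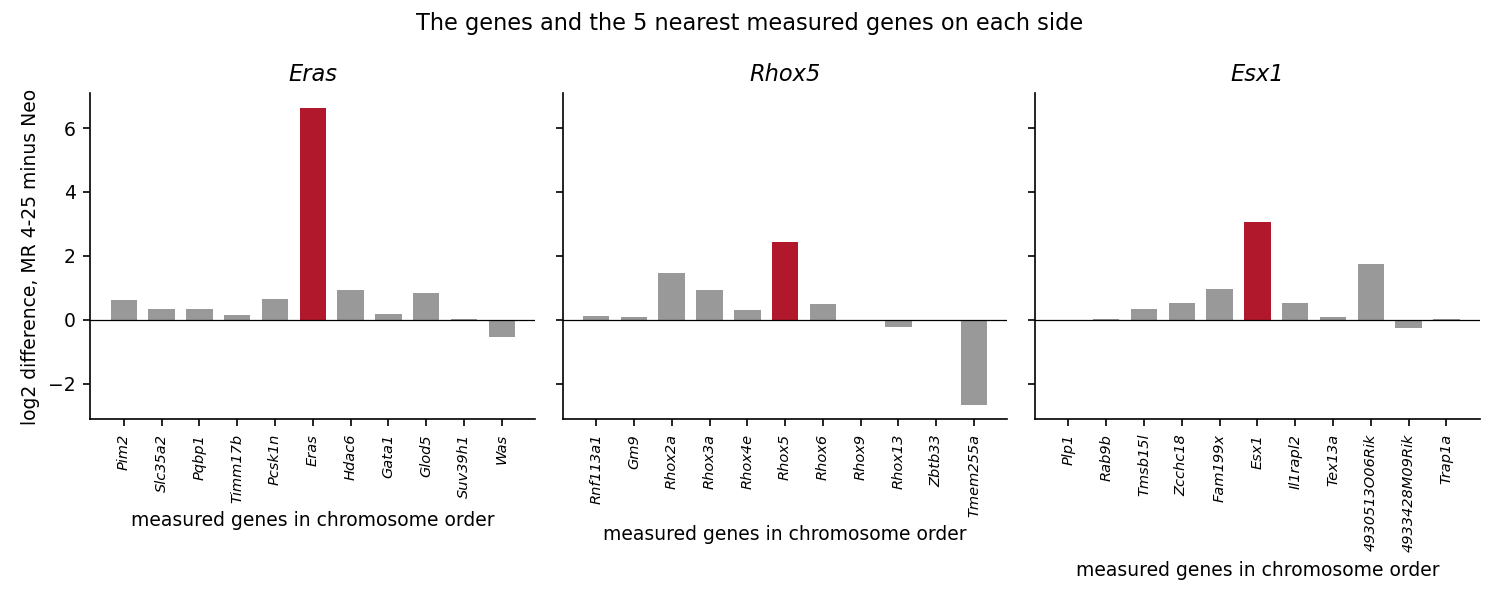
Log2 difference, MR 4-25 minus Neo, of Eras, Rhox5 and Esx1 (red) and of the 5 nearest measured genes on each side (grey), in chromosome order. The grey bars of the Eras panel run from −0.55 to 0.92, and no grey bar stands for a gene that passed the limma test.

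The genes whose pattern over the 6 arrays was most like Eras were Defb41, a defensin (Pearson r = 0.9987), Cep170b (0.9961) and the phospholipase Pla2g4a (0.9942), then S100a6 and Oaf. For Rhox5 they were Ctso, the connexin gene Gja1, Dcpp1, Prdm1 and Cdkn2a, with r of 0.9964 to 0.9985. For Esx1 they were Rtn2, Oaf, Cdkn2a, Mcub and Rundc1, with r of 0.997 to 0.9989. These values are over 6 arrays that fall into 2 lines, so they mainly restate the gap between lines, and genes share the arrays and their scaling. At r of at least 0.95 there were 27 of 1642 eligible genes for Eras, 169 of 7069 for Rhox5 and 126 of 6218 for Esx1.

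For the dimmer genes the lines overlapped. Pou5f1 was most like Olfr43, Sprn, Col4a6, Teddm3 and D030068K23Rik, with log2 differences of −0.75 to −0.49 between lines, and Rhox6 was most like 1700011L22Rik, Nppb, Cyp4x1, Stfa3 and Npas3, with 0.24 to 0.43. Nanog was most like Actn2, Mgll, Chdh, Lpar1 and Hormad1, all with negative log2 differences, the smallest, −0.57, in Mgll. Nanog and Hormad1 were each well above background on 1 of 3 MR 4-25 arrays, so their likeness partly restates values near the floor. Under normexp the log2 difference of Nanog changed sign, at 0.69. Candidates numbered 8303 for Pou5f1, 10383 for Rhox6 and 8709 for Nanog, of which 230, 286 and 175 reached an r of 0.95 over the 6 arrays.

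Markers of the tissues these genes are known from were read in the same way. Of 8 embryonic stem cell markers, 5 were well above background on all 3 MR 4-25 arrays and 7 on all 3 Neo arrays, with a summed signal of 865 to 2527 units in MR 4-25 and 857 to 2397 in Neo, and Sox2 was well above background on none. Of 8 germ cell markers, 2 were so on all MR 4-25 arrays and 3 on all Neo arrays, with summed signals of 278 to 350 (MR 4-25) and 294 to 406 (Neo), and Ddx4, Dppa3 and Sycp3 were so on none. Of 8 markers of the somatic cells of the testis, 5 and 7 were, with sums of 5267 to 8203 in MR 4-25 and 5222 to 5852 in Neo, and Wt1 was on none. Each marker was read on its brightest probe. Of 6 myeloid markers 5 and 6 were so on all arrays of MR 4-25 and Neo, and of 6 B lymphocyte markers 3 and 5. Over all probes, 54.2% were well above background on all 6 arrays, so these counts say little about a tissue. Sox2, Ddx4, Dppa3, Sycp3 and Wt1 were not kept by the filter and were not tested. None of the other embryonic stem cell, germ cell or testis markers passed the limma test in either direction. Of the B lymphocyte markers, 1 was called lower in MR 4-25 by that test.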

How the data were processed

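Total RNA of 6 samples, 3 of MR 4-25 and 3 of Neo, was measured on 1 Agilent array each. The deposited values are background-corrected Cy3 intensity values, which come from Feature Extraction by Agilent (version 9.5.3.1 in the file headers, 9.5 in the submitters' processing notes). A value table deposited for the series held the same values. Each array had 43379 gene spots and 1639 control spots, which were left out. Outlier spots were masked, which dropped 34 of 41174 probes, and spots of a probe were averaged. The log2 of each array's 75th percentile was subtracted. Probes had to be well above background on 3 or more of 6 arrays (30965 kept), and the brightest probe stood for each of 21341 genes. Names came from RefSeq accessions for 22951 probes, current symbols for 6659 and synonyms for 3109, and 8455 kept the name in the file. The number of arrays limits the precision.

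The difference MR 4-25 minus Neo was tested by lmFit and eBayes of limma 3.58.1 in R 4.3.3, at an adjusted p of 0.05 (Benjamini-Hochberg, all genes). The script was tested on simulated data. The genes described and the 6 lists (289 genes, written from general knowledge) were chosen with earlier results of these data known. Named list genes were up to 3 per direction that passed and those detected in a single line, neighbours were named if they passed or lay next to Eras, and the 5 genes of highest r were named for genes detected on all arrays of a line. Exceptions are stated where they occur. Same-numbered arrays deviated together from their line's mean (r across genes 0.291, 0.214 and 0.557, all above 0.1), so replicate number was also fitted as a block. On slide 1 the crossed arrays correlated at 0.380 and 0.413, above the 0.291 and 0.214 of its same-numbered arrays. The shared deviation on slide 1 thus did not follow replicate number. Alternatives were normexp background with offset 50, quantile or median scaling, other filters, all probes, the value table, a block for slide or for replicate, the arrays of slide 1, and each array left out in turn.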

Additional observations from a re-analysis of the deposited data

How the results depend on the processing

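The replicate block left 1 gene higher and 0 lower in MR 4-25, in place of 144 and 119, and 0 listed genes higher. Normexp background gave 55 higher and 25 lower and 0 listed genes higher. It moved the median of all genes to 0.34, giving 5.46 for Eras and 2.53 for Esx1 (log2) or, less that median, 5.12 and 2.19. Without Neo 3 the median of all genes was −0.12. Quantile scaling gave 2.25 for Rhox5 and 1 listed gene lower (Ott). The slide block gave 172 higher and 166 lower, and also 1 listed gene lower (Ott). With no filter 92 genes were higher. The filter on all 6 arrays gave 289 higher and 235 lower of 15303 genes and, of 114 listed genes, 2 higher and 1 lower. The mean over probes gave 1 listed gene lower. Every probe on its own gave 186 of 30965 probes lower and 2 of 248 listed probes lower. Slide 1 alone gave 61 higher, 63 lower and 0 listed genes higher. Leaving out 1 array gave 0 to 92 genes higher and 0 to 131 lower, and 0 to 1 listed genes higher; the count was 0 in both directions without Neo 1 or Neo 2, 4 and 5 without MR 4-25 1, 4 and 2 without MR 4-25 2, 25 and 11 without Neo 3, and 92 and 131 without MR 4-25 3. The cause of these changes was not tested. Fewer genes were tested under the stricter filter, and fewer arrays entered the fit when 1 was left out. The log2 differences of Eras, Rhox5 and Esx1 were positive under the alternatives run on them: normexp, quantile and median scaling, the value table, slide 1 alone and each array left out. Of the other differences of the 10 genes, 85 values under an alternative stayed within the spread between replicates and 3 did not. The 3 were Nanog (0.69) and Ddx4 (0.86) under normexp and Rhox6 (−0.09) on slide 1 alone. That spread is each probe's own SD and is wide near the floor, so staying within it says little there. For Rhox9 it was 2.64, and log2 differences from −1.42 to 2.28 stayed within it. Values near the background limit what can be said of Rhox9, Nanog, Dazl, Dppa3 and Ddx4, whose order between lines was not detectable on these arrays.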

Other observations

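Klf2 and Dnmt3a, listed genes chosen here after their values were seen, differed between their probes. Klf2 is a transcription factor of the stem cell state and of resting T lymphocytes. Its brightest probe had 105228, 116473 and 93153 units in MR 4-25, against 119541, 238822 and 88430 units in Neo, a log2 difference of −0.09. Its other probe, A_51_P144264, had 10.5, 10.2 and 18.9 units in MR 4-25, where no array was well above background. In Neo it had 5676, 3346 and 4459 units. With the MR 4-25 values raised as for Ott it was 271-fold lower in MR 4-25, which is likewise not a firm lower limit. This probe passed the filter through Neo alone. Dnmt3a, a methyltransferase that sets new methylation, had log2 differences of −0.70, −1.43 and −0.31 on its 3 probes, of which the second (A_52_P169048) passed when every probe was tested (limma adjusted p = 0.0260).

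With the filter on all 6 arrays, Tet2, an enzyme that starts the removal of DNA methylation, had a log2 difference of 1.17 and Ets2, a factor of trophoblast, of −1.02, both with a limma adjusted p of 0.0314. Neither passed with the filter used above. Under the filter on all 6 arrays, 289 of 15303 genes were higher and 235 lower. The second Tet2 probe had a log2 difference of 0.13 over all 6 arrays, 0.99 on slide 1 and −1.59 on slide 2. On slide 2 it was near the floor in MR 4-25 3, with 5.02 units.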
